A study of Mus musculus with 40 samples.

Results

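The diabetic response of the kidney cortex was described by comparing 5 Akita mice with 5 WT littermates that were all gavaged with the ethanol vehicle. Akita mice are heterozygous for the Ins2-Akita mutation, which makes proinsulin misfold in the beta cells of the pancreas, so that the animals lack insulin and become diabetic without obesity. All 10 mice were male, on the C57BL/6J background, received 10% ethanol in water by oral gavage every day from 6 weeks of age, and were killed at 22 weeks of age. They made up 10 of the 40 libraries of the series, and 17747 of the 55401 genes in the table were tested, those whose counts averaged 10 or more across the 10 libraries. Separate mice in the series, 5 of each genotype per arm, received MitoGamide at 10 mg/kg in the same vehicle, or water, and share no library with the mice described here. A further arm, given MitoQ, entered only the fit of all 40 libraries. As a model, these groups cover 1 sex and 1 age, the mutation is present from birth, and bulk tissue was sequenced, in which fewer cells of a type and less RNA per cell cannot be told apart.

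The renal cortex holds glomeruli, where podocytes and endothelium filter the blood, and tubules, where the filtrate is taken back. Proximal tubule cells reabsorb glucose, amino acids and phosphate through apical carriers, make glucose, and secrete drugs and urate. The male mouse proximal tubule also expresses a set of transcripts that depends on androgens. Later segments adjust sodium, potassium, calcium, acid and water. In diabetes, the filtrate carries far more glucose than normal, which the proximal tubule has to take back.

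The libraries of the 10 mice held between 14753200 and 24321424 estimated counts. Levels are given as CPM, the count of a gene scaled to a total of 1000000 counts of tested genes per library, after TMM normalization over these 10 libraries. They may be compared between mice for 1 gene but not between genes of different length. Differences are log2 fold changes of Akita over WT mice from edgeR's quasi-likelihood test with Benjamini-Hochberg adjustment over all 17747 genes, with their standard error (SE), and "called" means an adjusted p under 0.05. Markers of S1 and S2 proximal tubule and of podocytes were found in every library, and those of skeletal muscle were too low to be tested. The mutated gene itself was near 0, with a sum of 2 counts of Ins2 over the 5 Akita and of 1 over the 5 WT libraries, so that the genotype labels could not be checked with it. The first principal component (35.3% of the variance) had all 5 Akita libraries on one side and all 5 WT libraries on the other. Mitochondrial ribosomal RNA took between 15.8% and 23.6% of the counts in Akita and between 15.1% and 17.7% in WT mice (exact permutation test, two-sided, p = 0.0952), and its part in the results was not tested.

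In this comparison, 16.4% of the tested genes were called, 8.18% higher and 8.22% lower in Akita mice. These shares are the background for the counts of each list below. Most differences were small, with 1643 called genes (56.5%) below 0.5 on the log2 scale and 367 at 1 or above, of which 172 were higher and 195 lower. The median of all tested genes was -0.0021. The groups were fully apart in 1996 of the called genes (68.6%), with no Akita value inside the WT range, and in 12.7% of all tested genes. In the 10 fits that left out 1 library each, 1818 of the called genes (62.5%) stayed called every time. The genes named below with a call are among these 1818. With all 40 libraries of the series in one fit, which share one estimate of the spread, 870 of the called genes were called in the same direction. Of the 199 genes named here with a call, 139 kept it there and 60 did not, none with a change of sign.

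**Figure D1:**
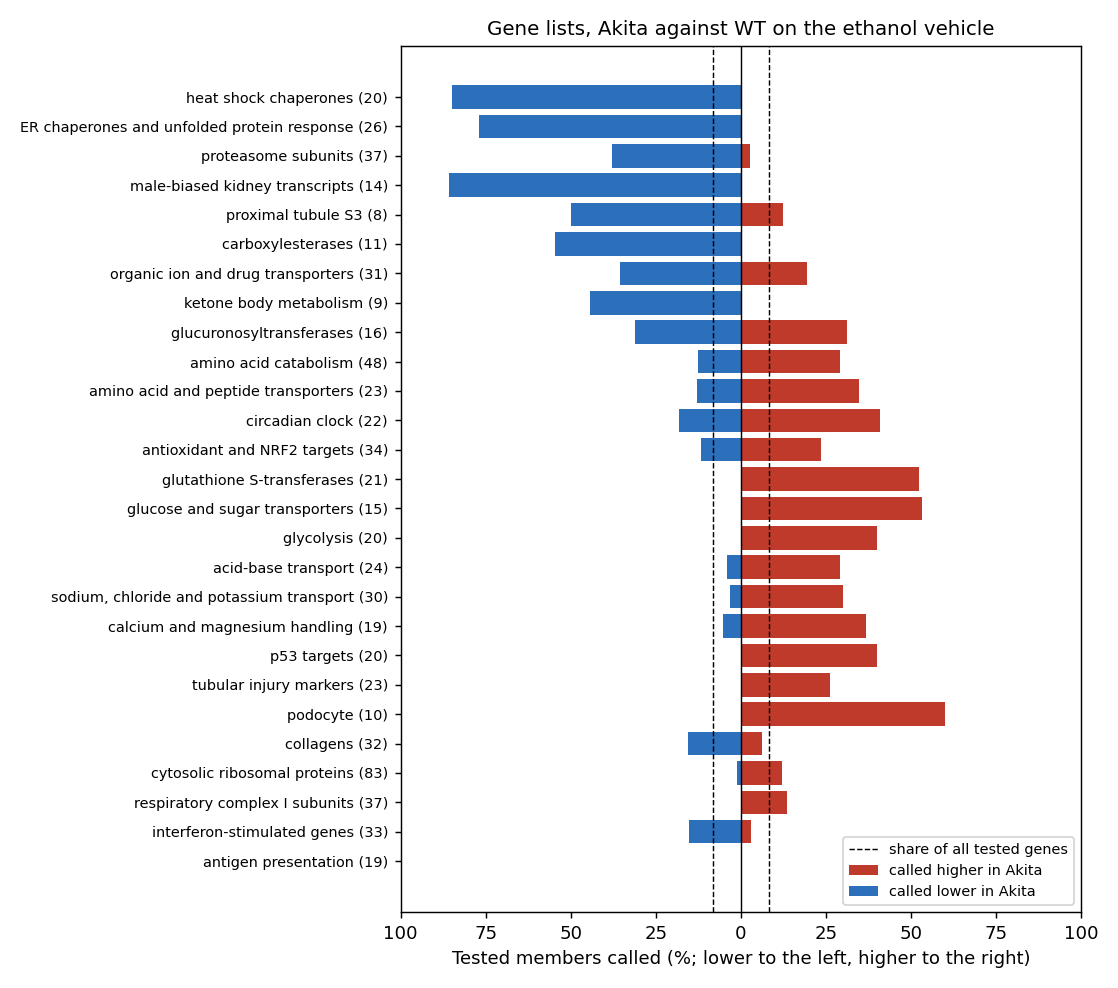
Share of tested members called higher (right, red) or lower (left, blue) in Akita than in WT mice on the ethanol vehicle, in percent, for 27 lists of genes with the number tested in parentheses. The dashed lines mark the shares over all tested genes, 8.18% higher and 8.22% lower, and the longest bars are those of the heat shock chaperones, the male-biased transcripts and the ER chaperones, all to the left.

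Most chaperones of the endoplasmic reticulum (ER), which fold secreted and membrane proteins, and genes of the unfolded protein response were lower in Akita mice. Of 26 tested members, 20 fell and none rose, with a median of -0.57. The call held in each leave-one-out fit for 18 of them, and 13 were called lower in the fit of 40 libraries. Summed over the list, the level was between 2317 and 2657 CPM in Akita and between 3559 and 4383 CPM in WT mice, without overlap. Hspa5 (ENSMUSG00000026864.13, chromosome 2, 34771970 to 34777547 of GRCm38), which encodes BiP, the central ER chaperone and sensor of unfolded proteins, was at 186, 190.0, 167, 243 and 209 CPM in the 5 Akita mice and at 367, 670.1, 432, 505 and 623 CPM in the 5 WT mice. Every Akita mouse was below every WT mouse, and the fold change was -1.39 (SE 0.15, adjusted p = 8.25e-05). Creld2, an ER stress protein with disulfide isomerase activity, was at 10.3, 10.5, 10.4, 13.7 and 10.1 CPM in the 5 Akita mice and at 16.7, 35.7, 30.1, 26.9 and 36.5 CPM in the 5 WT mice. All 5 Akita values lay below the lowest WT value, with Akita mouse 4 above the other 4, and the fold change was -1.41 (SE 0.18, adjusted p = 1.93e-04). The secreted stress factor Manf (-1.45), the co-chaperone Sdf2l1 (-1.61), the chaperone GRP94 encoded by Hsp90b1 (-0.92), and the disulfide isomerases Pdia4 (-0.82), Pdia6 (-0.86) and Pdia3 (-0.78) fell too. So did Xbp1, the transcription factor of the unfolded protein response (-0.70), and the degradation factors Edem1 (-0.54) and Sel1l (-0.59). Members of the ATF4 branch, which responds to amino acid shortage and translation stress, were not called by edgeR with all 10 libraries and the filter used here, with -0.35 for Atf4 (adjusted p = 0.053), 0.04 for Asns (adjusted p = 0.95) and 0.40 for Trib3 (adjusted p = 0.412). Atf4 lay close to the threshold, and its adjusted p was 0.0316 in DESeq2 and 0.0397, 0.0314 and 0.0490 by edgeR without Akita mouse 5, WT mouse 3 or WT mouse 4.

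In the 250 bases before the RefSeq start (table of GRCm38.p6 promoters), the ER stress response element (CCAAT, any 9 bases, then CCACG) on either strand was present in 0.130% of the 27025 genes of the table, in 0.159% of tested genes and in 8 of the 23 ER list genes found there. This motif was chosen after the values were seen. It stood before 9 of the 1079 genes called lower, 8 of them from the ER list, and before 1 of the 1074 genes called higher. The promoters of the 3 called list members with the motif and the smallest p are shown 5′ to 3′ in gene orientation, with the motif in capitals, for Hspa5 (chr2:34771840-34772089, plus strand), Pdia6 (chr12:17266339-17266588, plus strand) and Hsp90b1 (chr10:86705445-86705694, minus strand).
Hspa5: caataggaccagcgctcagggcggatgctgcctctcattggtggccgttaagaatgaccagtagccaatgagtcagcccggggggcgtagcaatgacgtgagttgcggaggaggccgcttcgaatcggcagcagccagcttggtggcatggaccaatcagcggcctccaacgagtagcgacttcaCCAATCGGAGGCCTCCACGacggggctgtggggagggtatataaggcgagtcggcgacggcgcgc
Pdia6: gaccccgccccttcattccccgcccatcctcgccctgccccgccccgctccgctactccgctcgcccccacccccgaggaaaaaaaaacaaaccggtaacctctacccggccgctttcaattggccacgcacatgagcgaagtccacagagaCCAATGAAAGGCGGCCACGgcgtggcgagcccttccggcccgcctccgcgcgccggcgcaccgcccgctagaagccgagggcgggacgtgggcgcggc
Hsp90b1: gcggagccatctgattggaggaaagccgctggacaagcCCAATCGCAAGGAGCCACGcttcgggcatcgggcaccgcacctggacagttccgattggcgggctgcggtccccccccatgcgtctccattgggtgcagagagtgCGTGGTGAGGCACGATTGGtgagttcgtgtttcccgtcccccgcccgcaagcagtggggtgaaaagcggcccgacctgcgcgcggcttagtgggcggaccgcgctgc
The match begins 65 bases before the start in Hspa5 and 98 bases before it in Pdia6, and Hsp90b1 holds 2 matches, 212 and 107 bases before its start. These are RefSeq starts. The Hspa5 gene as placed above, by GENCODE, begins within the window shown, so that its match lies after that start. A match describes the letters and was not tested as a binding site.

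Heat shock chaperones, which fold and refold soluble proteins, moved the same way. The list holds their regulator HSF1 and a pair of mitochondrial chaperonins beside the cytosolic proteins. Of 20 tested members, 17 fell and none rose, and the median was -0.84. All 17 calls held in each leave-one-out fit, and 13 were made in the fit of 40 libraries. WT mouse 2 had the highest value of several of these genes, and without it 17 heat shock and 19 ER genes were called lower. The summed level was between 2496 and 3129.6 CPM in Akita and between 4763 and 6615 CPM in WT mice. Hsph1 (ENSMUSG00000029657.15, chromosome 5, 149614287 to 149636376), the HSP110 exchange factor of HSP70, was at 52.4, 50.5, 42.5, 61.4 and 64.8 CPM in the 5 Akita mice and at 129, 219, 153, 163 and 137 CPM in the 5 WT mice. The highest Akita value was below the lowest WT value, and the fold change was -1.56 (SE 0.14, adjusted p = 2.44e-05). Hspa8, the constitutive HSP70, was at 1339, 1332, 1136, 1485 and 1182 CPM in the 5 Akita mice and at 2224, 3091, 2428, 2615 and 2209.8 CPM in the 5 WT mice, again without overlap, a fold change of -0.96 (SE 0.11, adjusted p = 1.13e-04). The HSP40 Dnaja1 changed by -1.03, the HSP90 genes Hsp90aa1 and Hsp90ab1 by -1.12 and -0.85, and their co-chaperones Chordc1, Ahsa1 and Stip1 by -1.24, -0.81 and -0.83. The inducible HSP70 gene Hspa1a was at 9.31, 8.96, 7.61, 15.3 and 10.7 CPM in the 5 Akita mice and at 21.7, 98.9, 45.9, 47.6 and 12.1 CPM in the 5 WT mice. WT mice spread widely here and the lowest WT value lay within the Akita range, with a fold change of -2.12 (SE 0.44, adjusted p = 0.00545). Hspa1a and Hspa1b are near-identical, so that kallisto may have divided their reads, and Hspa1b changed by -1.80. The factor itself, Hsf1, was at -0.05 (adjusted p = 0.749).

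The heat shock element GAANNTTC, searched in the same 250 bases, was present in 7.73% of the genes of the table, in 6.48% of tested genes, in 5.12% of those called higher and 6.12% of those called lower, and in 6 of the 15 heat shock list genes found there. Over the whole 300 bases of the table, which take in 50 bases after the start, the share was 9.04% of all genes and 10 of the 15. Both promoters shown are those of the called list members with the motif and the smallest p, Dnaja1 (chr4:40722218-40722467, plus strand) and the mitochondrial chaperonin Hspd1 (chr1:55087933-55088182, minus strand, fold change -0.45), with the motif in capitals.
Dnaja1: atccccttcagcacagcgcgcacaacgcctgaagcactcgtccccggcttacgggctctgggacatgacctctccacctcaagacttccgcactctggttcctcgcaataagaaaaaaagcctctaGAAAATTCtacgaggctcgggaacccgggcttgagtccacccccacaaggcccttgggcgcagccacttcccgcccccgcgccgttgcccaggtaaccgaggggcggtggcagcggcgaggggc
Hspd1: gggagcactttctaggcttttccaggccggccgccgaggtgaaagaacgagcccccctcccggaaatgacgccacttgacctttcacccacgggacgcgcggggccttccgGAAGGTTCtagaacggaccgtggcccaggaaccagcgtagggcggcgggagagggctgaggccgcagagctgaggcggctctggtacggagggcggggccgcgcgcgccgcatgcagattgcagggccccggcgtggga

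**Figure D2:**
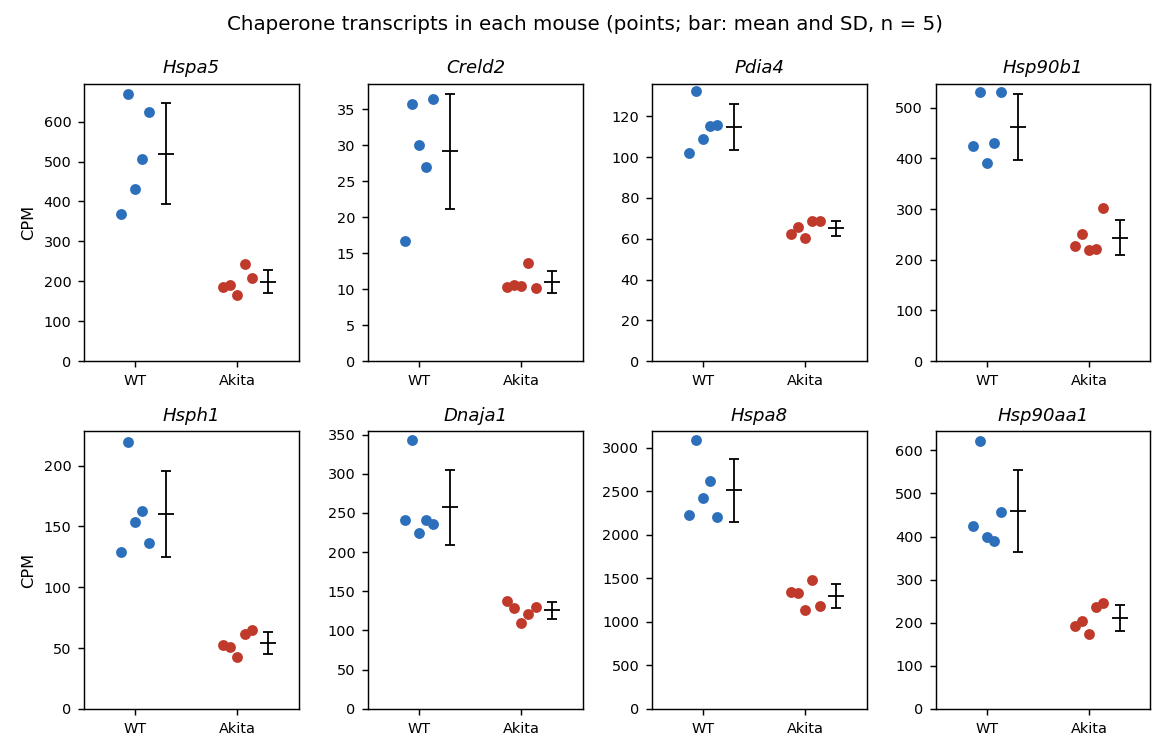
CPM of 8 chaperone transcripts in each of the 5 WT (blue) and 5 Akita (red) mice, with the mean and SD of each group as a black bar beside the points. In each of these 8 genes every Akita mouse lies below every WT mouse, and the WT mice are the more spread group.

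Some proteasome subunits were lower. Of 37 tested, 14 were called lower and 1 higher, with a median of -0.12. Of these calls, 8 held in each leave-one-out fit, and the fit of 40 libraries called 0 of the subunits lower and 1 higher. In the MitoGamide arm 0 were called lower by edgeR, and the median was 0.02, with 23 of 37 above 0, while on water it was -0.19, with 36 of 38 below 0. Psmd7 (-0.38), Psmc6 (-0.28) and Psmd11 (-0.30), which belong to the regulatory particle, were lower, whereas the assembly factor Psmd9 was higher (0.35). Cytosolic ribosomal proteins showed 10 higher and 1 lower of 83 (13.3% called, against 16.4% of all tested genes), and 0 and 0 with 40 libraries. Their fold changes were small, with a median of 0.10, but above 0 in 69 of 83. The count above 0 was 77 of 83 with MitoGamide and 64 of 84 on water.

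Transcripts that mark the male kidney were strongly reduced in these male Akita mice. Of 14 male-biased genes, 12 fell and none rose, with a median of -1.26. All 12 calls held in each leave-one-out fit, and 8 were made in the fit of 40 libraries. Slco1a1 (ENSMUSG00000041698.11, chromosome 6, 141907282 to 141946962), an organic anion transporter of the apical proximal tubule, was at 47.5, 40.9, 31.5, 34.998 and 45.9 CPM in the 5 Akita mice and at 428, 390.1, 258, 270.1 and 437 CPM in the 5 WT mice. The highest Akita value was far below the lowest WT value, and the fold change was -3.15 (SE 0.17, adjusted p = 2.42e-07). Kap, the kidney androgen-regulated protein, was at 2895, 2157, 2189, 3075 and 3253 CPM in the 5 Akita mice and at 11625, 9161, 10757, 10873 and 7394 CPM in the 5 WT mice. Here too the groups were well apart, with a fold change of -1.88 (SE 0.16, adjusted p = 1.18e-05). The acyl-CoA synthetase Acsm3 (-2.21), the fatty acid hydroxylase Cyp4a12a (-1.97), the amino acid carrier subunit Slc7a13 (-1.58), the ornithine decarboxylase Odc1 (-1.31), the transporters Slc22a30 (-1.25) and Slc22a28 (-1.17), which share sequence, the CoA hydrolase Nudt19 (-0.82) and the cytochrome Cyp2e1 (-0.68) followed. The 2 members without a call were Cyp7b1 (-0.96, adjusted p = 0.144) and Serpina1f (0.47, adjusted p = 0.512).

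Of 4 female-biased genes, 3 rose and none fell. Cyp4a14 of this list and Cyp4a12a of the male-biased list are also counted among the PPAR-alpha targets below. Cyp4a14, a fatty acid omega-hydroxylase, was at 402, 432, 639, 678 and 384 CPM in the 5 Akita mice and at 12.002, 59.3, 74.6, 33.7 and 132 CPM in the 5 WT mice. The lowest Akita mouse had more than the highest WT mouse, a fold change of 3.02 (SE 0.46, adjusted p = 6.59e-04). The prolactin receptor Prlr was at 33.7, 34.1, 43.4, 27.5 and 23.6 CPM in the 5 Akita mice and at 9.08, 11.8, 12.9, 13.2 and 5.62 CPM in the 5 WT mice, also without overlap, a fold change of 1.62 (SE 0.21, adjusted p = 2.31e-04). Slc7a12, an amino acid carrier subunit, rose by 2.08 with overlapping groups. Of 11 hydroxysteroid dehydrogenases, which interconvert active and inactive steroids, 5 fell and none rose, among them Hsd3b2 (-1.33), Hsd17b2 (-1.18) and Hsd11b1 (-0.98). Sex hormones were not analysed here.

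**Figure D3:**
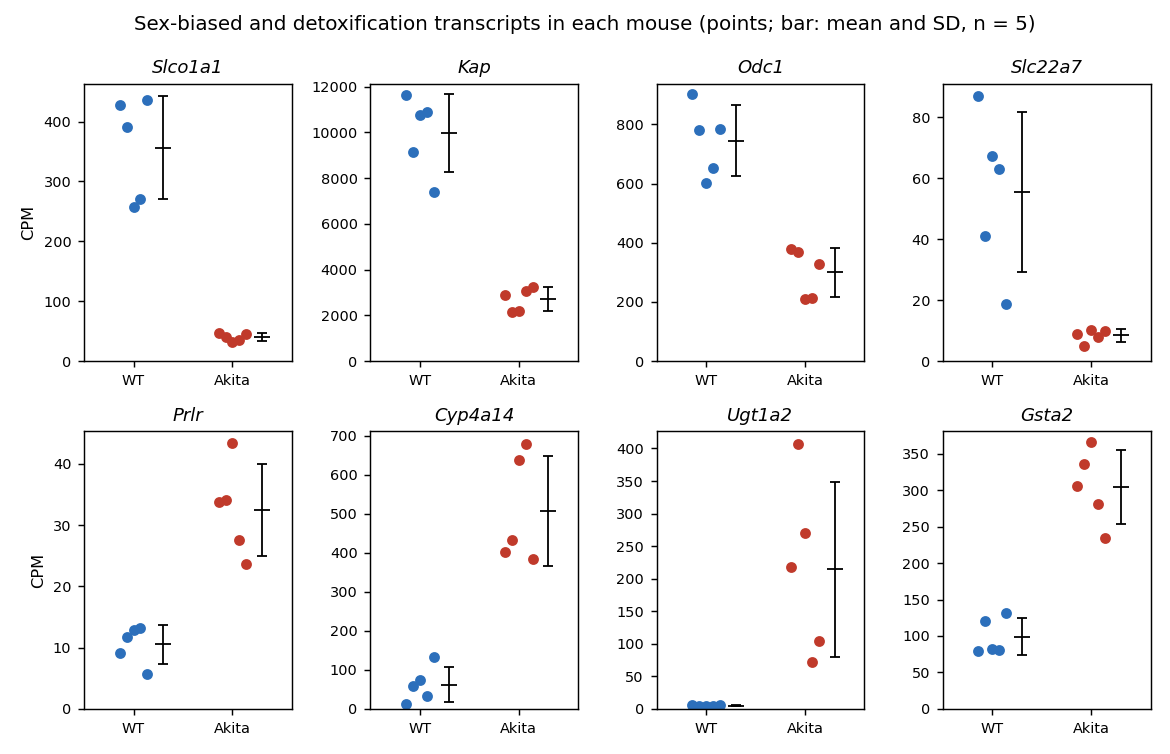
CPM of 3 male-biased transcripts (Slco1a1, Kap, Odc1), the S3 transporter Slc22a7, 2 female-biased transcripts (Prlr, Cyp4a14) and 2 detoxification enzymes (Ugt1a2, Gsta2) in each WT (blue) and Akita (red) mouse, with mean and SD of 5. None of the 8 panels has overlapping groups, and Ugt1a2 differs several-fold among the Akita mice.

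Detoxification enzymes changed in both directions. Of 21 glutathione S-transferases, which attach glutathione to reactive compounds, 11 rose and none fell, with a median of 0.38. The call held in each leave-one-out fit for 9 of them, and 3 were called higher in the fit of 40 libraries. Gsta2 was at 306, 336, 366, 281 and 235 CPM in the 5 Akita mice and at 79.3, 121, 81.7, 80.1 and 132 CPM in the 5 WT mice. No value overlapped, and the fold change was 1.63 (SE 0.16, adjusted p = 4.10e-05). Gsta1 was very low in WT mice, at 3.86, 3.10, 3.73, 2.32 and 1.18 CPM in the 5 Akita mice and at 0, 0.436, 0.166, 0.254 and 0.552 CPM in the 5 WT mice, with a fold change of 3.27 (SE 0.46, adjusted p = 4.37e-04). Gsta1 and Gsta2 are near-identical and their reads may have been divided between them. Mgst3 (0.73), Gstm1 (0.68) and Gsto1 (0.81) rose by less. Ephx1, the microsomal epoxide hydrolase, was at 40.2, 40.5, 54.3, 54.3 and 41.8 CPM in the 5 Akita mice and at 13.7, 19.2, 16.6, 14.1 and 16.7 CPM in the 5 WT mice, a fold change of 1.52 (SE 0.12, adjusted p = 6.80e-06) without overlap.

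The wider list of antioxidant enzymes and NRF2 targets had calls in both directions. Of 34 members, 8 rose and 4 fell, and the median was -0.01. The fit of 40 libraries called 5 higher and none lower, and the MitoGamide arm 12 higher and 1 lower. The carbonyl reductases Cbr1 (1.26) and Cbr3 (1.83), the quinone reductase Nqo1 (0.81) and transketolase, Tkt (0.52), were higher. Haem oxygenase, Hmox1 (-0.73), superoxide dismutase, Sod1 (-0.45), and Gclm, a subunit of the enzyme that starts glutathione synthesis (-0.42), were lower, and these 3 lost their call with 40 libraries. The metallothioneins Mt1 and Mt2, which bind zinc and copper, rose by 1.68 and 1.45.

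Of 16 UDP-glycosyltransferases, most of which attach glucuronic acid while the Ugt3a and Ugt8a members use other sugars, 5 rose and 5 fell, against 3 and 1 in the fit of 40 libraries. Ugt1a2 (ENSMUSG00000090171.1, chromosome 1, 88200601 to 88218997) was at 218, 406, 270.0, 72.3 and 105 CPM in the 5 Akita mice and at 5.24, 5.01, 4.11, 4.77 and 5.17 CPM in the 5 WT mice. WT mice were nearly alike, whereas the Akita mice were spread over several-fold, and the fold change was 5.47 (SE 0.44, adjusted p = 9.52e-06). Genes of the Ugt1a locus share all but their first exon, so that reads may have been divided among them, which also holds for Ugt1a1 (2.18). Ugt2b38 (-0.71), Ugt3a2 (-0.60) and Ugt8a (-0.74) were lower. Carboxylesterases, which split esters and lipids, fell in 6 of 11 (3 in the fit of 40 libraries) and rose in none, with a median of -0.43. Ces1g, a lipid hydrolase best known from liver, was at 0.594, 0.815, 2.61, 1.09 and 0.867 CPM in the 5 Akita mice and at 22.2, 29.03, 9.88, 7.44 and 18.1 CPM in the 5 WT mice. The highest Akita value was below the lowest WT value, a fold change of -3.93 (SE 0.43, adjusted p = 7.62e-05), and Ces1f (-1.01) and Ces2b (-1.10) fell by less. Members of the Ces1 cluster are similar in sequence. Of 12 genes of ethanol and acetaldehyde metabolism, 3 rose and 5 fell (66.7% called, against 16.4% of all tested genes), and 3 and 2 did with 40 libraries. The 3 higher were Aldh1a1 (2.02), Aldh1a7 (1.75) and Aldh1b1 (1.65), and among the 5 lower were Adh1 (-1.09) and Aldh3a2 (-0.71). Of 28 cytochrome P450 genes, 3 of them (Cyp2e1, Cyp2j13 and Cyp7b1) also in the male-biased list, 5 rose, among them Cyp2s1 (0.73) and Cyp2d22 (1.02), and 6 fell, among them Cyp2d12 (-1.73), Cyp2a4 (-1.63) and Cyp2j13 (-1.28), against 2 and 2 with 40 libraries.

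Several genes of sugar transport and glycolysis rose. Of 15 sugar transporters, 8 were called higher and none lower, with a median of 0.33, and 6 calls held in each leave-one-out fit. Slc5a10, the sodium-coupled fructose and mannose carrier SGLT5, was at 210.3, 211, 161, 252 and 197 CPM in the 5 Akita mice and at 87.3, 59.9, 103, 103 and 80.996 CPM in the 5 WT mice. No values overlapped, a fold change of 1.25 (SE 0.14, adjusted p = 1.10e-04). The urate and sugar carrier Slc2a9 (0.97), the fructose carrier Slc2a5 (0.92), the basolateral glucose carrier Slc2a2 (0.43) and the insulin-dependent carrier Slc2a4 (0.67) rose too. The main apical glucose carrier of the early proximal tubule, Slc5a2 (SGLT2), was at 396, 360.0, 298, 221 and 325 CPM in the 5 Akita mice and at 293, 338, 358, 341 and 283 CPM in the 5 WT mice. Its groups overlapped, with a fold change of -0.01 (SE 0.13, adjusted p = 0.969). Of 20 glycolysis genes, 8 rose and none fell, led by pyruvate kinase Pklr (0.83) and enolase Eno1 (0.48), and 7 calls held in each leave-one-out fit. In the fit of 40 libraries, 5 of the sugar transporters and 2 of the glycolysis genes were called higher. Of 12 gluconeogenesis genes, 4 rose and 1 fell, and 2 of these calls held in each leave-one-out fit. With 40 libraries 1 was called higher and 0 lower. Muscle-type fructose bisphosphatase Fbp2, a gluconeogenic enzyme, rose by 0.83, a call lost with 40 libraries. Of the kinases that shut off pyruvate dehydrogenase, Pdk1 (0.84) and Pdk2 (0.61) were higher and Pdk3 (-0.64) lower.

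Lipid and ketone genes were mixed. Lpl (ENSMUSG00000015568.16, chromosome 8, 68880491 to 68907448), the lipase that frees fatty acids from lipoproteins, was at 104, 112, 113, 119 and 116 CPM in the 5 Akita mice and at 597, 463, 392, 542 and 423 CPM in the 5 WT mice. The Akita values stayed within a narrow range, all below the lowest WT value, with a fold change of -2.10 (SE 0.11, adjusted p = 1.30e-07). The fatty acid receptor Cd36 (-1.20) and the fatty acid hydroxylase Cyp4b1 (-1.44) were lower, while Cyp4a10, which shares sequence with other Cyp4a genes, was higher (1.04). Of 22 PPAR-alpha targets, 5 rose and 3 fell, against 2 and 3 in the fit of 40 libraries. Ketone body genes fell in 4 of 9 and rose in none: Bdh1 (-1.0006), Oxct1 (-0.66) and Acat1 (-0.70), which burn ketone bodies, and the monocarboxylate carrier Slc16a1 (-0.74). The fit of 40 libraries called 1 of them lower, and in the MitoGamide arm 3 were higher and 3 lower. Of 21 genes of fatty acid and triglyceride synthesis, 6 fell, among them malic enzyme Me1 (-0.90), and 3 rose, among them Acacb (0.70) and Elovl6 (0.74), whereas 40 libraries gave 1 and 1. Of 35 fatty acid oxidation genes, 4 rose, such as the thioesterase Acot3 (1.38) and the carnitine transferase Cpt1b (0.60), and 5 fell. Calls made up 25.7% of the list, against 16.4% of all tested genes. The numbers higher and lower were 7 and 6 in DESeq2, 9 and 6 with the replicate number as a block, 3 and 2 with 40 libraries, and 11 and 2 in the MitoGamide arm.

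Amino acid enzymes and carriers moved both ways. Of 48 catabolic enzymes, 14 rose and 6 fell, and 16 of these calls held in each leave-one-out fit. The fit of 40 libraries called 5 higher and 2 lower. Bhmt, which returns homocysteine to methionine with betaine, was at 15.1, 17.1, 26.5, 11.002 and 14.6 CPM in the 5 Akita mice and at 4.31, 3.49, 3.78, 5.59 and 5.12 CPM in the 5 WT mice. It was higher in every Akita mouse, with a fold change of 1.91 (SE 0.21, adjusted p = 8.25e-05), while Cbs, which removes homocysteine, fell (-0.99). The alanine transaminases Gpt (0.93) and Gpt2 (0.61) and glutamate dehydrogenase Glud1 (0.64) rose. Ivd (-0.57) and Pcca (-0.34), which act in the breakdown of branched-chain amino acids, fell. Of the other enzymes of that pathway in the list, 1 was lower, 1 was higher and the rest were not called. Of 19 kynurenine and NAD genes, 2 rose and 3 fell, against 1 and 2 with 40 libraries. Among them, Aadat (-0.98) was lower and Nampt, the salvage enzyme of NAD (0.55), higher, the latter without a call with 40 libraries. Of 23 amino acid carriers, 8 rose and 3 fell, against 5 and 1 with 40 libraries. Slc38a3, the glutamine carrier SNAT3 that supplies ammonia production, was at 77.98, 59.4, 50.6, 199 and 59.96 CPM in the 5 Akita mice and at 17.1, 8.66, 20.8, 18.7 and 8.63 CPM in the 5 WT mice. Each Akita mouse was above each WT mouse and 1 Akita mouse was well above the other 4, with a fold change of 2.60 (SE 0.39, adjusted p = 6.18e-04). Slc43a2 (0.67), Slc1a5 (0.66) and the neutral amino acid carrier Slc6a19 (0.85) were higher, and Slc1a4 lower (-0.78).

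Markers of tubule segments did not move together. In the S3 segment, the straight end of the proximal tubule, 4 of 8 markers fell and 1 rose, and their summed level, mostly that of Kap, was between 2938 and 4221 CPM in Akita and between 9009 and 14351 CPM in WT mice. Of these 8 markers, 4 are also in the male-biased list. Slc22a7, an S3 organic anion carrier, was at 9.01, 5.10, 10.1, 7.92 and 10.04 CPM in the 5 Akita mice and at 86.998, 41.2, 67.3, 63.1 and 18.7 CPM in the 5 WT mice. The WT mice differed widely, yet all lay above the Akita mice, with a fold change of -2.72 (SE 0.34, adjusted p = 1.75e-04), and the flippase Atp11a fell too (-1.27). For S1 and S2, where most glucose is taken back, 1 of 11 markers rose and 2 fell, the endocytic receptor megalin, Lrp2 (-0.47), and the regulator Hnf4a (-0.28), none of them called with 40 libraries. Their summed level was between 11994 and 16061 CPM in Akita and between 14905 and 18349.9 CPM in WT mice, with overlap. Among organic ion and drug transporters, 6 of 31 rose and 11 fell, against 4 and 8 with 40 libraries. The efflux pumps Abcc4 (1.08) and Abcc3 (1.63) were higher, and the urate exchanger Slc22a12 (-0.65) lower. The urate carrier Slc17a3, from the phosphate list, was lower as well (-1.07).

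Several genes of distal ion transport were higher. Of 30 sodium, chloride and potassium genes, 9 rose and 1 fell, against 6 and 0 with 40 libraries. Wnk4, a kinase that sets sodium chloride transport in the distal convoluted tubule, was at 125, 132, 119, 119 and 122 CPM in the 5 Akita mice and at 82.8, 86.8, 84.5, 73.1 and 86.9 CPM in the 5 WT mice, a difference of 0.57 (SE 0.06, adjusted p = 5.81e-05) with narrow groups. The sodium channel subunit Scnn1a (0.62) and the sodium pump subunit Atp1b1 (0.35) rose, and the cotransporter Slc12a2 fell (-0.34). In calcium and magnesium handling, 7 of 19 rose, including the calcium buffers Calb1 (0.74) and S100g (0.75) and the magnesium channel Trpm6 (0.70), while the claudin Cldn10 fell (-0.79). In this list 5 calls held in each leave-one-out fit, and the fit of 40 libraries called 1 gene higher and none lower, none of the 4 named here. The water channel of principal cells, Aqp2, was at 97.04, 90.4, 70.01, 95.7 and 105 CPM in the 5 Akita mice and at 55.6, 54.7, 60.5, 46.8 and 39.4 CPM in the 5 WT mice, a fold change of 0.84 (SE 0.12, adjusted p = 5.01e-04). Of 21 water channel and osmolyte genes, 2 rose and 3 fell (23.8% called, against 16.4% of all tested genes), and 2 and 0 did with 40 libraries. In acid-base transport, 7 of 24 rose and 1 fell, with the carbonic anhydrases Car2 (0.54) and Car15 (0.64) and the proton pump subunit Atp6v0a4 (0.33) higher and Car4 (-0.72) lower. With 40 libraries 3 and 1 of this list were called higher and lower. The summed level of the 9 connecting tubule and principal cell markers was between 568 and 789 CPM in Akita and between 371 and 511 CPM in WT mice, and that of the 6 distal convoluted tubule markers between 1671 and 1891 CPM and between 923 and 1583 CPM. Of 6 markers of the thin limb and inner medulla, which a cortex sample should hold little of, 2 were higher and 1 lower, with a median of 0.97, 5 of 6 fold changes above 0 and 5 at an unadjusted p under 0.05. The medians of the connecting tubule and principal cell list and of the distal convoluted tubule list were 0.35 and 0.42. Of the thin limb and inner medulla markers, none was at 0 in all 10 libraries, and their sum was between 453 and 649 CPM in Akita and between 389 and 563 CPM in WT mice. The list includes the water channel gene Aqp1, which is also expressed in proximal tubule, so that the sum does not measure medullary tissue. The part of unequal dissection in the distal genes was not tested. Markers of the thick ascending limb were called in 0 of 7 genes by edgeR, with 2 at an unadjusted p under 0.05, and in 1 by DESeq2.

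In the glomerulus, 6 of 10 podocyte markers were called higher and none lower, with a median of 0.32, and 3 of them held in each leave-one-out fit. The fit of 40 libraries called 1. Among these 3 were Cdkn1c (0.91), a cell cycle inhibitor, and nephrin, Nphs1 (0.58), of the slit diaphragm. Cdkn1c was at 16.4, 13.96, 18.8, 13.8 and 14.6 CPM in the 5 Akita mice and at 6.50, 10.8, 7.97, 7.06 and 8.73 CPM in the 5 WT mice. The summed podocyte level was between 336 and 404 CPM in Akita and between 252 and 332 CPM in WT mice, so that neither group overlapped the other. Of the collagen chains of the mature glomerular basement membrane, made within the glomerulus by podocytes, 2 were lower, with -0.56 for Col4a3 and -0.50 for Col4a4. Bulk cortex does not show in which cells these 2 chains fell. Col4a3 was at 227, 240.2, 192, 219 and 194 CPM in the 5 Akita mice and at 379, 253, 295, 357 and 293 CPM in the 5 WT mice. The laminin chain Lama5 was higher (0.60). In the renin-angiotensin-aldosterone system, 4 of 15 genes rose and 1 fell, against 1 and 1 with 40 libraries. The converting enzyme Ace was at 73.5, 59.2, 99.5, 72.9 and 77.6 CPM in the 5 Akita mice and at 266, 166, 197, 218 and 127 CPM in the 5 WT mice, a fold change of -1.35 (SE 0.18, adjusted p = 2.55e-04). Angiotensinogen, Agt, rose (1.22).

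Part of the stress and injury genes rose. Of 20 targets of p53, 8 rose and none fell, with a median of 0.24, and 7 calls held in each leave-one-out fit. With 40 libraries 4 were called higher. Eda2r, a receptor of the TNF receptor family, was at 3.22, 2.66, 1.86, 3.22 and 3.28 CPM in the 5 Akita mice and at 0.862, 0.599, 0.581, 0.572 and 0.602 CPM in the 5 WT mice. The groups were apart, with a fold change of 2.16 (SE 0.21, adjusted p = 3.99e-05). Zmat3 (0.65), Phlda3 (1.31) and cyclin G1, Ccng1 (0.58), also rose. Of 23 tubular injury markers, 6 rose and none fell, and 3 of them held in each leave-one-out fit. With 40 libraries 2 were called. Osteopontin, Spp1, was at 741, 838, 985, 547 and 628 CPM in the 5 Akita mice and at 266, 448, 356, 317 and 309 CPM in the 5 WT mice, a fold change of 1.14 (SE 0.16, adjusted p = 4.60e-04), and the keratins Krt8 (0.33) and Krt18 (0.59) rose by less. The classical markers Havcr1 (KIM-1) and Lcn2 (NGAL) stayed near 1 CPM or below, with Havcr1 means of 0.572 ± 0.316 CPM (Akita) and 0.715 ± 0.293 CPM (WT) (SD, n = 5) and Lcn2 means of 0.815 ± 0.424 CPM (Akita) and 0.429 ± 0.199 CPM (WT), and adjusted p of 0.649 and 0.159.

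Of all tested genes 16.4% were called. In the matrix lists the share was 30.8% of 26 laminins and other basement membrane and matrix proteins, 25.8% of TGF-beta, BMP and matrix turnover genes and 21.9% of collagens. It was 25% of cytokine, chemokine and NF-kB genes, 28.6% of complement genes and 18.2% of interferon-stimulated genes. In the laminin list 6 were higher and 2 lower, against 1 and 0 with 40 libraries. For TGF-beta, BMP and matrix turnover the counts were 6 and 2, against 3 and 1. Cytokine, chemokine and NF-kB genes had 4 and 2, against 2 and 1, and complement genes 3 and 3, against 1 and 2. Of 19 antigen presentation genes edgeR called 0, with 6 at an unadjusted p under 0.05. DESeq2 called 1 of them, and edgeR with the replicate block 2. Of 32 collagens, 2 rose and 5 fell, among them the low Col19a1 (-4.22) and Col6a6 (-3.06), against 0 and 4 with 40 libraries. Gremlin, Grem1, an inhibitor of bone morphogenetic proteins, was at 2.87, 2.99, 0.596, 2.89 and 4.40 CPM in the 5 Akita mice and at 0.398, 0.163, 0.0415, 0.127 and 0.451 CPM in the 5 WT mice. It was higher in each Akita mouse, although 1 of them was close to the WT mice, with a fold change of 3.57 (SE 0.53, adjusted p = 5.71e-04). Timp3, an inhibitor of matrix proteases, was lower (-0.85) and thrombospondin, Thbs1, higher (0.48). Complement C3 was at 31.1, 38.1, 103, 49.6 and 18.8 CPM in the 5 Akita mice and at 8.62, 18.8, 14.7, 11.2 and 18.8 CPM in the 5 WT mice, where the lowest Akita and the highest WT mouse were almost equal, with a fold change of 1.72 (SE 0.37, adjusted p = 0.007), and Cfb fell (-0.58). Il34, a ligand of the macrophage receptor, fell (-2.16), and that receptor, Csf1r, was lower as well (-0.59), 1 of 9 macrophage markers called. The summed macrophage level was between 51.3 and 75.3 CPM in Akita and between 69.5 and 101 CPM in WT mice, with overlap. The chemokine Cxcl12 (0.79) and the cytokine Mif (0.75) rose. Interferon-stimulated genes had 1 higher and 5 lower of 33, against 0 and 1 with 40 libraries.

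In respiratory complexes I, III and IV and ATP synthase, the called genes were higher in Akita mice, where 16.4% of all tested genes were called and 8.18% were higher. Of 37 complex I subunits, 5 rose and none fell (13.5% called, median 0.10), and 2 of them, Ndufa5 (0.37) and Ndufa7 (0.31), held in each leave-one-out fit. In complexes III and IV, 5 of 22 rose (22.7%), and of 17 ATP synthase subunits 1 did (5.88%). The fold change was above 0 in 31, 19 and 16 members of these lists. With all 40 libraries in one fit, 1 of these genes was called higher. On water, the median of the complex I subunits was -0.03, with 25 of 37 below 0. With MitoGamide it was 0.19, with 35 of 37 above 0, and 9 complex I, 6 complex III and IV and 5 ATP synthase genes were called higher and none lower. The 13 messenger RNAs of the mitochondrial genome had 0 calls by edgeR, with 1 at an unadjusted p under 0.05, and 1 by DESeq2, and in 0 of them did the groups not overlap.

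Transcription factors and signals of the tubule were called in both directions. Of 28 kidney lineage factors, 7 rose and 3 fell, against 2 and 1 in the fit of 40 libraries. Ppard, the lipid-sensing nuclear receptor PPAR-delta, was at 10.2, 11.8, 8.95, 10.2 and 9.60 CPM in the 5 Akita mice and at 62.1, 19.5, 20.7, 24.9 and 27.1 CPM in the 5 WT mice. The groups did not overlap, with a fold change of -1.59 (SE 0.28, adjusted p = 0.00179). Hnf4g fell (-0.39, not called in that fit), while the collecting duct factor Gata3 (0.60) and the nuclear receptor Esrrb (0.66) rose. Of 19 genes of the hypoxia response, 5 rose and 2 fell, among them Hif1a (0.26), the oxygen sensor Egln3 (0.79), the vasodilator Adm (0.51) and the mitophagy receptor Bnip3 (0.40) upwards and the collagen hydroxylase P4ha1 (-0.87) downwards. With 40 libraries 1 and 1 were called, and Hif1a, Adm and Bnip3 were not among them. In insulin and IGF signalling, 3 of 25 rose and 4 fell, including the growth hormone receptor Ghr (-0.47) and the adaptor Grb10 (-0.31). The share called was 28%, against 16.4% of all tested genes. In each leave-one-out fit 4 of these 7 calls held, and with 40 libraries 0 and 1 were called. The citrate carrier Slc13a2 rose (1.06), while of 13 citrate, sulphate and monocarboxylate transporters 1 rose and 3 fell, against 1 and 1 with 40 libraries. The lipases Pnpla2 (0.63) and Mgll (0.66) rose too. Their list of 20 lipoprotein and lipid storage genes had 4 higher and 3 lower, against 1 and 1 with 40 libraries. Of 10 endothelial markers, 3 were higher and 1 lower (none with 40 libraries), with summed levels between 570.1 and 664 CPM in Akita mice and between 506 and 684 CPM in WT mice.

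Clock genes differed between the groups. The circadian clock is a loop in which Arntl, Npas2 and Clock drive Per, Cry and the output factors Dbp, Tef and Hlf, so that its transcripts rise and fall over the day. Of 22 tested members, 9 were higher and 4 lower, and all 13 calls held in each leave-one-out fit. In the fit of 40 libraries, 7 were called higher and 2 lower. With MitoGamide 4 were called higher and none lower, and on water 1 and none, and the medians were 0.54 on the ethanol vehicle, 0.27 with MitoGamide and 0.24 on water. The activator Arntl (BMAL1) was at 2.33, 4.67, 4.92, 6.54 and 2.79 CPM in the 5 Akita mice and at 26.5, 14.8, 10.7, 12.1 and 17.002 CPM in the 5 WT mice. All Akita values lay below all WT values, a fold change of -1.92 (SE 0.29, adjusted p = 6.18e-04). Npas2 (-2.51), Nfil3 (-1.47) and Clock (-0.42) were lower too. Dbp was at 73.5, 61.4, 35.7, 42.1 and 65.8 CPM in the 5 Akita mice and at 1.86, 12.04, 16.6, 12.6 and 8.83 CPM in the 5 WT mice. It was higher in each Akita mouse, with a fold change of 2.40 (SE 0.35, adjusted p = 5.28e-04), and Ciart (2.59), Bhlhe41 (1.74), Cry2 (1.21), Per3 (1.12), Tef (0.75) and Hlf (0.55) were higher as well. The cold-inducible RNA-binding protein Cirbp, itself rhythmic, rose by 1.14. The hour at which each mouse was killed is not given in the sources used here, and its part in these differences was not tested.

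The E-box CACGTG, bound by the Arntl complex, was found in 6.86% of the genes of the promoter table, in 9.35% of tested genes, in 10.4% of those called higher and 9.92% of those called lower, and in 5 of the 18 clock genes found there. Over 300 bases the count was 5 of 18 again, against 8.09% of all genes. The promoter of Ciart (chr3:95882229-95882478, minus strand), the called clock gene with an E-box and the smallest p, held 3 of them, 116, 58 and 44 bases before its start, shown in capitals. The other motifs searched were D-box TTATGTAA, CRE TGACGTCA, ARE TGACNNNGC, SRE TCACNCCAC, XRE GCGTG and HRE ACGTG, which lies within the E-box letters. Their shares among genes called higher and genes called lower were 0.559% and 1.39% for the D-box (0.745% of tested genes), 2.61% and 2.41% for CRE (2.74%), 14.3% and 14.4% for ARE (13.6%), 1.21% and 1.30% for SRE (1.29%), 49.7% and 46.6% for XRE (45.9%), and 22.7% and 24.9% for HRE (23.7%).
Ciart: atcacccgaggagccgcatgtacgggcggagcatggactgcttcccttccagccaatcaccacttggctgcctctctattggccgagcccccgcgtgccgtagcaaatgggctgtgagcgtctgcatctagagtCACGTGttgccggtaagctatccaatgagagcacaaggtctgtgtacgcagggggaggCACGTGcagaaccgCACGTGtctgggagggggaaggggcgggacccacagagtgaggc

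**Figure D4:**
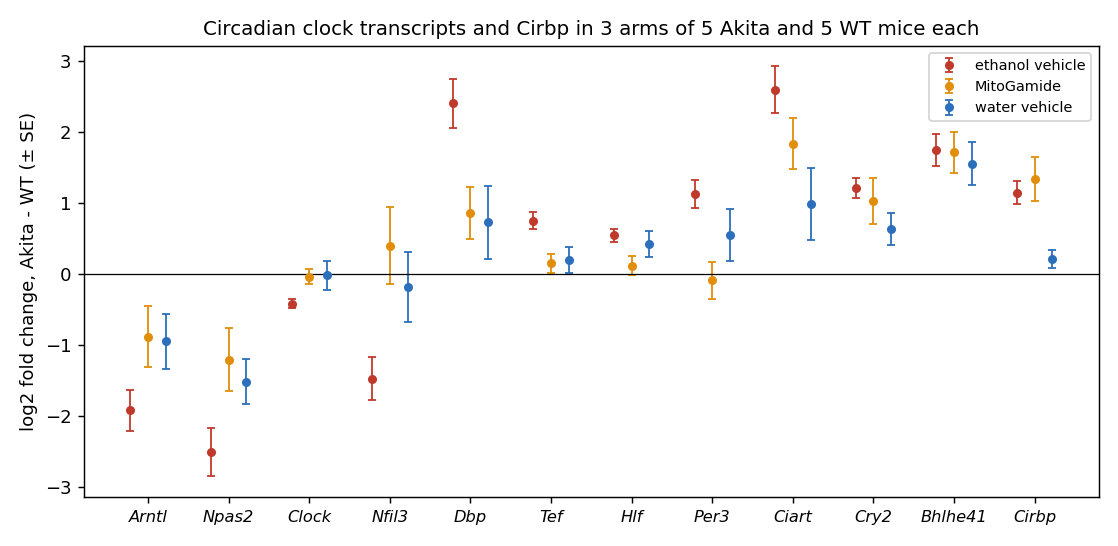
Log2 fold change of Akita over WT mice with its SE for 11 clock genes and Cirbp on the ethanol vehicle (red), with MitoGamide in the same vehicle (orange) and on water (blue), in separate mice, 5 Akita and 5 WT mice per arm. The 11 clock genes were all called on the ethanol vehicle, which favours a larger value there, and the edgeR test of the difference between arms called none of them.

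Whether the same genes differed in other mice was examined in the MitoGamide and water arms, which hold separate Akita and WT mice. Of the 2864 called genes also tested with MitoGamide, 95.3% had the same sign there, against 73.1% of all genes tested in both. With an adjusted p under 0.05 in both, 1279 genes were shared in the same direction and 0 in opposite directions, 44.7% of the calls on the ethanol vehicle and 53.7% of the 2383 MitoGamide calls tested in both (14.3% of genes were called in that arm). Of the 2868 called genes also tested on water, 88.2% had the same sign, against 63.8% of all genes. Water had 101 calls (0.552% of 18304 genes), and 96 of them were called in the same direction on the ethanol vehicle. The water libraries varied more in make-up, with mitochondrial ribosomal RNA between 9.23% and 41.5% of counts and mitochondrial messenger RNA between 1.54% and 5.71%, against 15.1% to 23.6% and 4.84% to 5.75% on the ethanol vehicle, and the part of this in the count was not tested. Single libraries bore on the counts of both arms. Leaving out Akita mouse 1, 2, 4 or 5 on water gave 59, 52, 32 or 44 calls, and leaving out WT mouse 1 or 4 gave 49 or 50. With MitoGamide, leaving out Akita mouse 2 gave 1404 calls, and leaving out WT mouse 1, 2, 3 or 4 gave 1368, 1248, 1451 or 1388. The median size of the fold changes of the called genes was 0.44 on the ethanol vehicle, 0.42 with MitoGamide and 0.28 on water. The genes were chosen for their values on the ethanol vehicle, which favours a larger median there.

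**Figure D5:**
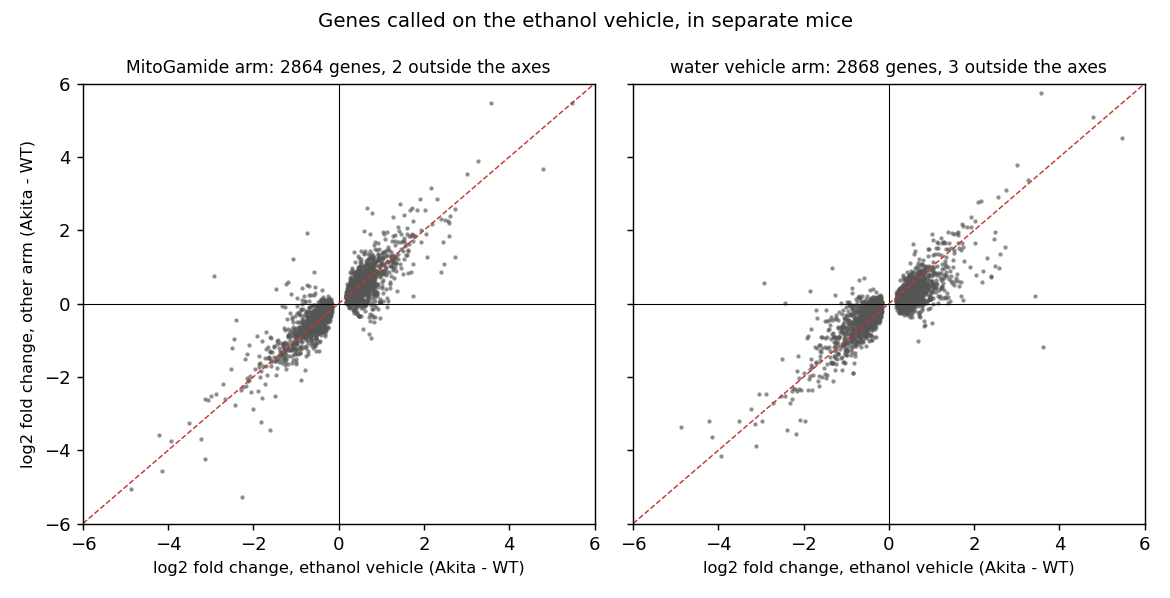
Log2 fold change of Akita over WT mice in the MitoGamide arm (left) and the water arm (right) against that on the ethanol vehicle, for genes called on the ethanol vehicle and tested in the other arm. Each point is a gene, the dashed line marks equal values, and most points lie where both values have the same sign, 95.3% for MitoGamide and 88.2% for water.

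The difference of the diabetes effect between arms was tested gene by gene with edgeR. Between ethanol and water vehicle, 0 of 18050 genes were called, 767 had an unadjusted p under 0.05 (4.25%) and DESeq2 called 2, the predicted genes Gm28959 and Gm29012, singled out after their values were seen. Without WT mouse 5 on the ethanol vehicle, edgeR called Gm28959 as well (adjusted p = 0.0441). Between the vehicle and MitoGamide, 0 of 17256 genes were called, 1435 had an unadjusted p under 0.05 (8.32%) and DESeq2 called 0. The groups of genes above had the same direction of their medians in the 3 arms for heat shock chaperones (-0.84 on the ethanol vehicle, -0.61 with MitoGamide and -0.52 on water), ER chaperones (-0.57, -0.44 and -0.36) and male-biased transcripts (-1.26, -1.40 and -1.90). With MitoGamide, 14 heat shock, 12 ER and 8 male-biased genes were called lower, where 7.71% of genes were called higher and 6.6% lower. On water, 0 heat shock and 0 ER genes were called by edgeR, while 2 male-biased genes were lower, where 0.186% of all genes were called higher and 0.366% lower. For single members, Hspa5 changed by -1.07 with MitoGamide and -0.57 on water, Slco1a1 by -2.61 and -3.29, Lpl by -2.09 and -2.32, and Gsta2 by 1.46 and 1.88. Podocyte markers had a median of 0.57 with MitoGamide and 0.05 on water. Hmox1, lower on the ethanol vehicle, was at 1.94 with MitoGamide (adjusted p = 0.112) and -0.08 on water.

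Beyond the lists, the genes named by rule were the 20 higher and the 20 lower protein-coding genes with the smallest p whose groups did not overlap. Among those not yet described, the carboxypeptidase Cpe was at 9.61, 11.2, 10.96, 8.11 and 9.85 CPM in the 5 Akita mice and at 44.2, 31.3, 52.3, 48.3 and 43.98 CPM in the 5 WT mice, a fold change of -2.15 (SE 0.13, adjusted p = 7.32e-07). Pzp, a broad protease inhibitor of plasma, was at 17.8, 11.4, 8.87, 16.3 and 23.9 CPM in the 5 Akita mice and at 174, 104, 136, 109.5 and 100.3 CPM in the 5 WT mice, a fold change of -2.99 (SE 0.23, adjusted p = 6.80e-06). The transcription factor Etv1 (-1.27), the selenium carrier Selenop (-1.06), the plasma glycoprotein Azgp1 (-1.85), the chromatin remodeller Smarca2 (-1.05) and Agps, of ether lipid synthesis (-1.02), were lower. The mitochondrial myosin Myo19 (0.66), the adhesion protein Mpzl2 (1.44), the heparan sulfatase Sulf2 (0.98), the acyl-CoA synthetase Acsf2 (1.47) and the membrane repair protein Myof (1.01) were higher.

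Called genes were more frequent at higher levels. When genes were divided into 5 equal parts by mean CPM, 2.96% of genes in the lowest part were higher and 2.25% lower, and in the highest part 9.63% were higher and 18.0% lower, the reverse order of the directions. Of 14010 protein-coding genes, 19.1% were called, against 9.74% of 698 lincRNAs, of which 20 were higher and 48 lower. Within 5 Mb of Ins2 on chromosome 7, 18 of 104 tested genes were called (17.3%), against 16.4% of all tested genes. Of these 104, 15 were higher (14.4%, against 8.18%) and 3 lower (2.88%, against 8.22%).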

How the data were processed

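Total RNA of kidney cortex was depleted of ribosomal RNA and sequenced as single reads. The authors trimmed the reads with Skewer, quantified them with kallisto 0.46.1 against GENCODE M25 transcripts (GRCm38), and summed them per gene in R 4.0.2, and the deposited values are these estimated counts, whole numbers without scaling between libraries. No column was left out as belonging to another series. Gene positions and biotypes came from GENCODE M21, which held 99.5% of the gene identifiers.

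Genes whose counts averaged 10 or more across the libraries of a fit were tested with the quasi-likelihood test of edgeR 4.0.16 (R 4.3.3) after TMM normalization, with Benjamini-Hochberg adjustment, and an adjusted p under 0.05 was a call. The study used DESeq2, which was run here as an alternative (1.42.0), beside other normalization, filters, a joint fit of all 40 libraries, a replicate block, and leaving out each library. Each library is a separate mouse.

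The comparison, the 62 gene lists and the 23 marker lists were chosen with earlier results of these data known. Lists were described by counts and medians and not tested. Named genes were list members, those with the smallest p first, and in addition the 20 higher and 20 lower protein-coding genes with the smallest p among those without overlap, and the 10 with the smallest p in each test of a difference between arms. Some members that meet this rule are not reported here. Motifs were searched in the 250 bases before each RefSeq start, a window set after a first search of the whole 300 bases of the table.

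On simulated data of this comparison with 200 changed genes, edgeR recovered 27 of 50 at 1.5-fold, 35 of 50 at 2-fold, 48 of 50 at 3-fold and 46 of 50 at 4-fold, with 4.29% false calls among its calls, and with no change it called 0 of 17526 genes. A first criterion on overall recovery was not met (78%) and was replaced by one per fold size after that result was seen.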

Additional observations from a re-analysis of the deposited data

Results flagged for a closer look

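In each group of 5 mice, the gap of the highest or lowest value to its neighbour was divided by the range of the group, and values above 0.71 were taken as a mouse standing apart. Of 426 groups examined (the CPM of 208 named genes and 5 library measures, in both genotypes), 32 stood out (7.51%), where chance gives about 1 in 20 groups.

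WT mouse 2 stood apart as the highest WT mouse in 6 chaperone genes. The ratios were 0.853 for Dnaja1 (342 CPM, next 242), 0.737 for Ahsa1, 0.796 for Chordc1, 0.88 for Hsp90ab1, 0.712 for Hsp90aa1 and 0.806 for Stip1. That mouse also stood apart for Elovl6 (0.73) and for the share of the 7SL RNA genes in the library (0.791, 7.73% of counts), highest in both. All 6 chaperones stayed called without it.

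WT mouse 1 was highest for Il34 (0.771), Cd36 (0.773), Eda2r (0.897), Atp11a (0.743), Acsm3 (0.802), Ppard (0.821), Npas2 (0.79) and Cyp2j13 (0.798), and lowest for Slc1a5 (0.771), Abcc4 (0.821) and Slc2a2 (0.886). WT mouse 5 was lowest for Ugt3a2 (0.764).

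Akita mouse 3 was highest for Ces1g (0.754), Cyp2d12 (0.818), Gstm1 (0.844), Gsto1 (0.767) and Nfil3 (0.822), and lowest for Col4a4 (0.744). Akita mouse 4 was highest for Slc38a3 (0.815; 199 CPM, next 78.0), Aldh1a1 (0.773), Creld2 (0.877) and the share of Malat1 (0.781; 1.19% of counts). Akita mouse 1 was highest for Atp1b1 (0.73), and Akita mouse 5 lowest for Atp6v0a4 (0.749).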

How the results depend on the processing

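On the ethanol vehicle, the count of 2910 calls went to 873 with all 40 libraries in one fit, and lay between 2170 and 2787 when 1 library was left out. On water, 101 calls became 354 in DESeq2, 543 with all 40 libraries and 32 with the replicate block, and between 32 and 94 without 1 library. With MitoGamide, 2386 calls became between 1248 and 2822 without 1 library. The difference between ethanol and water had 0 calls, 2 in DESeq2, and between 0 and 1 without 1 library, and that between vehicle and MitoGamide had 0 in each of these. The cause of these shifts was not tested.

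The replicate numbers did not pair the mice. Akita and WT mice of the same number deviated from their group means with correlations of 0.0696, 0.0503, -0.00031, 0.0946 and -0.0110, and 1 of 5 numbers, the first, correlated best with its own. The block changed no call of a named gene.

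Of 199 named genes with a call, 199 kept it in DESeq2, with RLE size factors, without a filter, with the block and in each of the 10 leave-one-out fits, and 193 of the 193 tested kept it with at least 10 counts in every library. With all 40 libraries, 139 kept it and 60 lost it, none with a change of sign. That fit also moved 91 of the 170 counts of genes higher or lower in a list by more than 1.5 times. Leaving out 1 library moved between 16 and 34 of them that far, the replicate block 21, no filter 18, DESeq2 15, at least 10 counts in every library 10, and RLE size factors 1. The genes that lost their call were Hmox1, Nphs1, Odc1, Lama5, Psmd11, Hnf4g, Hnf4a, Slc1a4, Ccng1, Nampt, Hif1a, Fbp2, Slc6a19, Glud1, Psmc6, Cldn10, Oxct1, Sod1, Krt18, Ndufa5, C3, Slc12a2, Trpm6, Gsto1, Cyp2e1, Pnpla2, Hspd1, Atp1b1, Mgst3, Lrp2, Slc2a2, Gclm, Calb1, Cyp2j13, Per3, Clock, Edem1, Adm, Gpt2, Acat1, Ugt8a, Slc16a1, Nudt19, Pdk3, Atp6v0a4, Psmd7, S100g, Elovl6, Pcca, Ndufa7, Ugt3a2, Krt8, Ghr, Nfil3, Ugt2b38, Eno1, Cyp4a10, Bnip3, Col4a3 and Cfb. Among genes without a call, Atf4 passed the threshold in DESeq2 (adjusted p = 0.0316), with 10 counts in every library (0.0447), without a filter (0.0471), and without Akita mouse 5 (0.0397), WT mouse 3 (0.0314) or WT mouse 4 (0.0490). Asns changed sign with the block (-0.019) and lay between -0.11 and 0.25 without 1 library. Slc5a2 lay between -0.098 and 0.098 without 1 library, changing sign in 5 of the 10. At these depths, calls were fewest among the genes with the lowest CPM.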
